A study of Mus musculus with 2 samples.

Results

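The genes described are 10 members of the TGF-beta, activin and BMP pathways whose bodies carry YTHDF2 RIP peaks in mouse C2C12 myotubes. They are the ligand genes Tgfb2 and Inhba, the receptor genes Tgfbr1, Tgfbr3, Acvr2a, Bmpr1a and Bmpr2, the signal transducers Smad2 and Smad4, and the corepressor Skil. They were chosen by name from their rows in the authors' gene table and from peaks that overlap their mm10 gene bodies by at least 1 bp, so that every value of a RIP peak over input below is a description and not a test. They stand among 3287 protein-coding genes with such a peak, and hold 35 of the 9271 peaks of the series.

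The RIP and input libraries entered the peak calling, 1 of each, both from wild-type C2C12 cells with batch label 1. C2C12 myoblasts come from mouse muscle and form multinucleated myotubes when serum is lowered; the cells were otherwise untreated. The protocol in the labels extracts RNA but describes the library steps for DNA. RIP recovers RNA that comes down with an antibody, here to YTHDF2, a cytoplasmic protein that reads N6-methyladenosine (m6A) and brings bound mRNA to the deadenylation machinery. The IgG control named in the study design was not analysed here, and with 1 library per group no value has a replicate. In bulk material, fewer cells of a type and less RNA per cell cannot be told apart. Peaks give no expression level, so the myotube label could not be checked directly. Of 12 myotube markers, 3 carried a peak (Mylpf, Tnnt1 and Tnni2) and 9 did not, where 15.0% of all protein-coding genes did. All 3 were in the authors' gene table, where 5.81% of those genes were.

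TGF-beta and activin ligands bind pairs of type II and type I receptor kinases, which phosphorylate SMAD2 and SMAD3, while BMP receptors phosphorylate SMAD1, SMAD5 and SMAD9. SMAD4 is the shared partner that enters the nucleus with either group, and SKIL (SnoN) holds back transcription by SMAD2 and SMAD3. In muscle, TGF-beta and activin signals restrain myoblast differentiation, and BMP signalling favours growth of the fibre.

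All 10 genes had a peak over the gene body, where 15.0% of 21951 protein-coding genes did, and 7 of the 10 were in the authors' gene table, where 5.81% of those genes were. Both counts were fixed by how the genes were chosen. The genes fell into 2 patterns. Both ligands, both SMADs and Skil had exactly 1 peak each, and each of these 5 peaks touched an exon. That contact was in part fixed by the choice too, since these 5 genes are in the authors' gene table, which lists exon elements only. The 5 receptors had 30 peaks, of which 28 touched no exon. Tgfbr1, Tgfbr3 and Acvr2a are not in that table and were chosen by body peaks alone. Peaks without an exon were not particular to receptors in the pathway, as given below for Smurf2, Cul1 and Crebbp. Bmpr2 held 15 and Bmpr1a 10, together 71.4% of the peaks of the whole group, while Tgfbr1 and Acvr2a held 2 each and Tgfbr3 held 1.

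**Figure D1:**
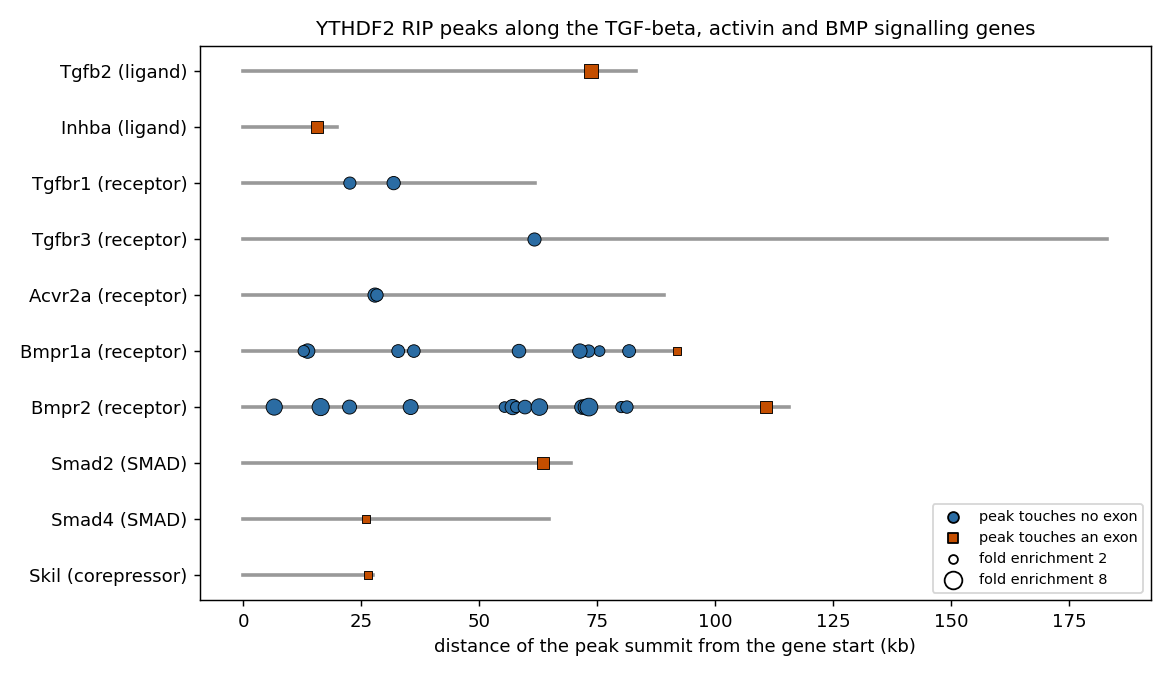
Position of every peak summit along each gene, as distance in kb from the gene start (horizontal axis), for the 10 genes (rows, grey line for the gene body). Blue circles touch no exon, orange squares touch an exon, and symbol area follows the fold enrichment. Bmpr2 carries 15 peaks and Bmpr1a 10, and the ligands, SMADs and Skil carry 1 each.

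The sequences that carry these 2 patterns are given on the strand of the gene, 5′ to 3′, from the GRCm38 RefSeq assembly, which is the mm10 build. The first is the whole Tgfb2 peak at chr1:186632227-186632484 (minus strand), shown because the authors' table lists it as coding. Capitals mark its coding bases.
Tgfb2 coding peak: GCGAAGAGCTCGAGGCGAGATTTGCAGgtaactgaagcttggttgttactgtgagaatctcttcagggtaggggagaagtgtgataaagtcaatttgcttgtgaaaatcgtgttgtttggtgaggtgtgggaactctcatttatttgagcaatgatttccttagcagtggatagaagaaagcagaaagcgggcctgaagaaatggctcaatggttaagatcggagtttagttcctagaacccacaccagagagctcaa
Only 27 of its 258 bases were coding, at the 5′ end and directly before the splice donor, and the summit lay in the intron.

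Next are the intron peaks of highest fold enrichment of the receptors, shown because all peaks of the group that touch no exon lay in receptor genes. Capitals mark GGAC, the core of the m6A consensus, searched on the strand of the gene. The Tgfbr1 peak lay at chr4:47385019-47385231 (plus strand). The Tgfbr3 sequence covers 201 bp around the summit, chr5:107227994-107228194 (minus strand). The Acvr2a peak lay at chr2:48841933-48842168 (plus strand), the Bmpr1a peak at chr14:34489594-34489817 (minus strand) and the Bmpr2 peak at chr1:59836509-59836724 (plus strand).
Tgfbr1 intron peak: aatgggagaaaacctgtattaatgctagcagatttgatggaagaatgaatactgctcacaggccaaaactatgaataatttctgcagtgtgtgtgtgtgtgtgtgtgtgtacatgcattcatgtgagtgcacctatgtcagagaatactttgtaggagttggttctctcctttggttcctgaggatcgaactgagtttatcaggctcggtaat
Tgfbr3 intron peak: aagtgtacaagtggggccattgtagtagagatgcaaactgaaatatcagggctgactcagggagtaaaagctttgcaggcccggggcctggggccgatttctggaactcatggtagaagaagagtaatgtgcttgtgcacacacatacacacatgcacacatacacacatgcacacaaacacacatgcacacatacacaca
Acvr2a intron peak: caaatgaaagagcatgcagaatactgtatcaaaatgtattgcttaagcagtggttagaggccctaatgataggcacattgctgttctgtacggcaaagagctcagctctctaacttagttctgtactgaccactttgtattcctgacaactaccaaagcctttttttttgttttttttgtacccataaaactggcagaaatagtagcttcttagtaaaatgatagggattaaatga
Bmpr1a intron peak: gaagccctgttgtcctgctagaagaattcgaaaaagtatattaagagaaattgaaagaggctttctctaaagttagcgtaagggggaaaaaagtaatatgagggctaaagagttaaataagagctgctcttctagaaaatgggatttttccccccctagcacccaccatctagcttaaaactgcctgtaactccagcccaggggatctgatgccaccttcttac
Bmpr2 intron peak: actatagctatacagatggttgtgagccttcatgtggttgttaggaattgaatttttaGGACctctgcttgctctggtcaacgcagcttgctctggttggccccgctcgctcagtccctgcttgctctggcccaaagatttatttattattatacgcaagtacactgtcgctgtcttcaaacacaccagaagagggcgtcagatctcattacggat
In the spans printed, GGAC occurs in 1 place, in Bmpr2. The span decides this: the whole Tgfbr3 peak, which is longer than the part shown, holds 1 GGAC, and so does the window of 201 bp at the Acvr2a summit. The Tgfbr1 peak holds a long run of alternating G and T.

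For the peaks in 3′ UTRs outside the SMAD genes, 30 bases at the summit are given, with the summit base in capitals. They lay at chr13:16027533-16027562 (Inhba, plus strand), chr14:34411430-34411459 (Bmpr1a, minus strand), chr1:59874104-59874133 (Bmpr2, plus strand) and chr3:31121360-31121389 (Skil, plus strand).
Inhba summit: tctattctgcagtaAtgtgggttagcacaa
Bmpr1a summit: agcctgtgagtatggCtttggcaaaaaatt
Bmpr2 summit: ttttttgaaaaaagAcactttttaaaaaat
Skil summit: aggaactgtgcccgAggtatttccctagca

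Each peak has a RIP pileup at its summit and an input background, as the caller estimated it, on the same scale, and the authors' fold enrichment is their ratio with 1 added to each. One RIP fragment adds 0.9 to the pileup. The range in brackets after a fold is its exact 95% Poisson interval, computed from the fragment number with the background unchanged. It covers counting error of the RIP fragments alone and leaves out error in the input background. PCR copies, which are not separate molecules, would also make it too narrow.

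Among the ligands, Tgfb2, which encodes TGF-beta 2, had 10 RIP fragments, a pileup of 9 over an input background of 1.08, and a fold enrichment of 4.80 (2.55 to 8.43). This was the peak of fewest fragments in the group. Its background equals the lowest one found at any peak over a protein-coding gene, so it may be a floor of the caller and not a measurement of local input, and the fold rests on it. Without the added 1 its fold enrichment was 8.32, and the added 1 changed it more than the highest fold of any other gene of the group. Inhba encodes the beta A subunit of activin A. Its peak had 49 RIP fragments, a pileup of 44.1 over an input background of 13.0, and a fold enrichment of 3.22 (2.40 to 4.24). The intervals of the ligands overlap, so their folds were not resolved from each other, although Inhba had the higher RIP pileup and the higher input background. The Inhba summit lay 418 bp past the stop codon in a 3′ UTR of 4492 bp, and the antisense gene Gm48444 overlaps the peak. Whether the libraries keep strand is not given in the sources used here, so reads of Inhba and of Gm48444 cannot be told apart.

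Bmpr2 encodes a type II receptor of BMPs, with a long cytoplasmic tail that other receptors of the family lack. Its 15 peaks were more than in any other gene of the group, and 50 protein-coding genes (0.228%), Bmpr2 included, had that many or more. Its only exon peak lay in the 3′ UTR, 3633 bp past the stop codon in a UTR of 8529 bp. That peak had 91 RIP fragments, the most in the group, a pileup of 81.9 over a background of 23.0, and a fold enrichment of 3.45 (2.79 to 4.23). The other 14 peaks lay in introns, with 13 to 56 RIP fragments (median 24.5) over backgrounds of 1.38 to 12. Their folds ran from 2.90 to 8.01 with a median of 5.50. The highest, at 8.01 (5.35 to 11.6), had 26 RIP fragments over a background of 2.05 and ranked 376 of all 9271 peaks by fold enrichment. The next 2 in the gene stood at 7.52 (5.13 to 10.7) and 7 (4.80 to 9.89). The lowest intron peak stood at 2.90 (1.71 to 4.65).

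The intron peaks of Bmpr2 lay in 3 of its 12 introns. Intron 1, of 48.9 kb, held 4 and intron 3, of 26.0 kb, held 8. Intron 5, of 2.64 kb, held 2. Per 100 kb of intron this was 8.19 peaks in intron 1, 30.7 in intron 3 and 75.7 in intron 5, the last resting on 2 peaks. Gaps between neighbouring peaks of the gene ran from 0.357 to 29.3 kb, and 3 of 14 were under 1 kb.

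Bmpr1a encodes a type I receptor of BMPs, the kinase that BMPR2 activates. It had 10 peaks, and 138 protein-coding genes (0.629%), Bmpr1a included, had that many or more. The authors' table lists only its 3′ UTR peak, which lay 3100 bp past the stop codon in a UTR of 3810 bp. That peak had 86 RIP fragments, a pileup of 77.4 over a background of 45, and a fold enrichment of 1.70 (1.37 to 2.10). It ranked 666 of 9271 by pileup and 9197 by fold enrichment. The 9 intron peaks had 27 to 60 RIP fragments over backgrounds of 5.00 to 9.30, with folds of 2.89 to 5.34 (median 4.21). The highest, 5.34 (4.10 to 6.85) with 60 fragments, lay in intron 1, and the second, 5.30 (3.91 to 7.03) with 46 fragments, in intron 7. Intron 1 (41.8 kb) held 4 peaks, intron 7 (4.58 kb) held 2, and introns 3, 8 and 10 held 1 each. The UTR peak of Bmpr1a thus had the highest pileup of its gene and the lowest fold, and its interval lay below those of 8 of the 9 intron peaks. These intervals leave out error in the background, which was 45 at the UTR peak.

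The other receptors had few peaks, all in introns and none in the authors' gene table. Acvr2a encodes a type II receptor of activins. Its 2 peaks lay 0.236 kb apart in intron 1. They were far from the exons of the transcript with the longest coding sequence (27107 and 27579 bp). The stronger had 16 RIP fragments, a pileup of 14.4 over an input background of 2, and a fold of 5.13 (3.08 to 8.13). The other had 12 RIP fragments, a pileup of 10.8 over the same background, and a fold of 3.93 (2.19 to 6.62). Tgfbr1 encodes the type I receptor of TGF-beta. Its peak in intron 1 had 20 RIP fragments, a pileup of 18 over a background of 4, and a fold of 3.80 (2.40 to 5.76). Its peak in intron 2 had 19 RIP fragments, a pileup of 17.1 over a background of 3, and a fold of 4.53 (2.82 to 6.93). Tgfbr3 encodes betaglycan, a co-receptor that presents TGF-beta 2 and binds inhibin. In a body of 183.1 kb it had 1 peak, in intron 2, with 36 RIP fragments, a pileup of 32.4 over a background of 6.55, and a fold of 4.43 (3.14 to 6.08). The highest folds of these 3 receptors and of Bmpr1a were not resolved from each other.

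**Figure D2:**
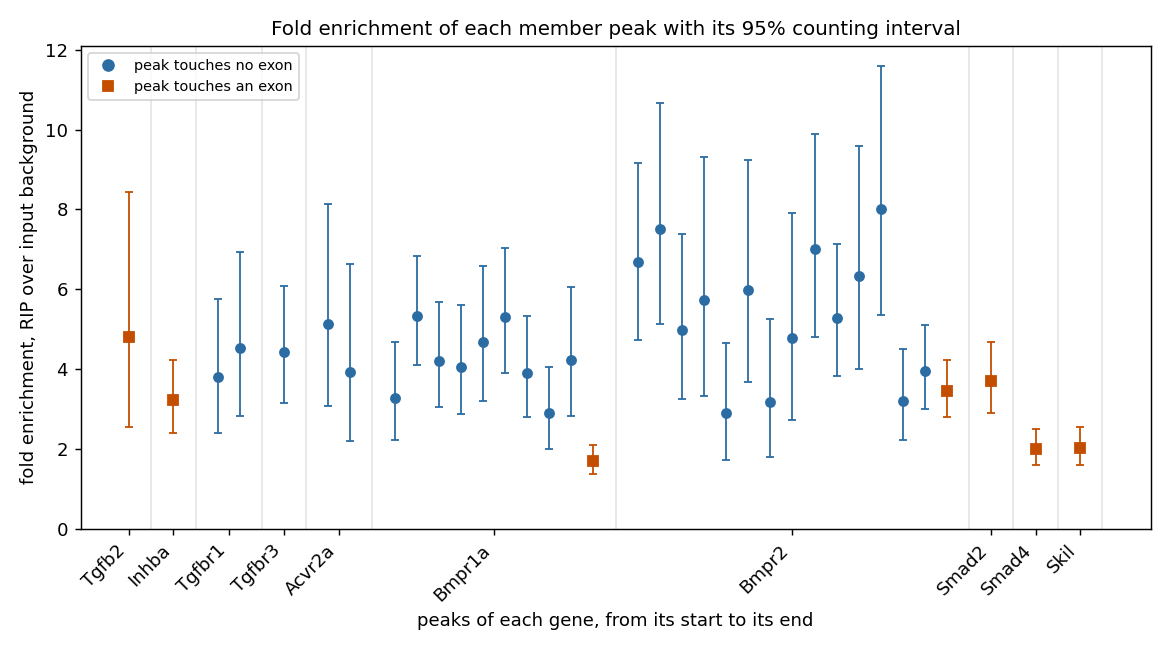
Fold enrichment of RIP over input background for each of the 35 peaks (vertical axis, linear from 0), grouped by gene and ordered from gene start to gene end. Bars are 95% counting intervals (Poisson), blue circles touch no exon and orange squares touch an exon. Bmpr2 reaches 8.01, while Smad4, Skil and the UTR peak of Bmpr1a lie near 2.

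Smad2 and Smad4 both lie on chromosome 18. Smad2 transduces TGF-beta and activin signals, and its peak, from 76304863 to 76305075, lay in the 3′ UTR only 254 bp past the stop codon, in a UTR of 6233 bp. It had 69 RIP fragments, a pileup of 62.1 over a background of 16.0, and a fold enrichment of 3.71 (2.90 to 4.68). The Smad4 peak, from 73677775 to 73677981, spanned the start codon. Of its 207 bases 137 were coding, and the summit lay in coding sequence. It had 77 RIP fragments, a pileup of 69.3 over a background of 34.0, and a fold enrichment of 2.01 (1.59 to 2.50). The SMADs had close RIP pileups, and their folds differ mainly through the backgrounds of 16.0 and 34.0. Their fold intervals do not overlap, but these leave out error in the background, so a difference in fold was not resolved. The Skil peak, from 31121333 to 31121518 on chromosome 3, lay 2761 bp past the stop codon in a 3′ UTR of 3964 bp. It had 71 RIP fragments, a pileup of 63.9 over a background of 31.0, and a fold enrichment of 2.03 (1.59 to 2.55), close to that of Smad4.

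By element, the 7 peaks that touch an exon were 5 in 3′ UTRs, 1 over a start codon and 1 at the edge of a coding exon. The authors' deposited table of elements covers the 1541 peaks in their gene table, all at exon elements, and not the intron peaks. Of these, 3′ UTRs held 44.6%, coding sequence 22.8%, stop codons 16.0%, 5′ UTRs 9.41% and start codons 7.20%. Positions within the UTR varied: the summits of Smad2 and Inhba lay 4.08% and 9.31% of the way from the stop codon to the transcript end, and those of Bmpr2, Skil and Bmpr1a 42.6%, 69.7% and 81.4% of the way.

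The peaks that touched no exon made up 80% of the 35 (exact binomial 95% interval 63.1 to 91.6), against 77.7% of 9080 pairs of a peak and another protein-coding gene. Without Bmpr2 and Bmpr1a, a choice made after seeing the data, it was 50% of 10 peaks (18.7 to 81.3). The intervals count peaks as independent, although those of 1 gene share their transcript. Intron peaks of the group had a median fold of 4.60, against 4.62 elsewhere, over a median background of 4.00, against 4.17 elsewhere. Exon peaks had a median fold of 3.22, against 3.40 elsewhere, over a median background of 23.0, against 12 elsewhere. The median fold over all 35 peaks was 4.22, against 4.38 elsewhere. In fold enrichment the peaks of these genes were therefore close to those of other genes of the same class. The part of the background in the lower folds of exon peaks was not tested.

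**Figure D3:**
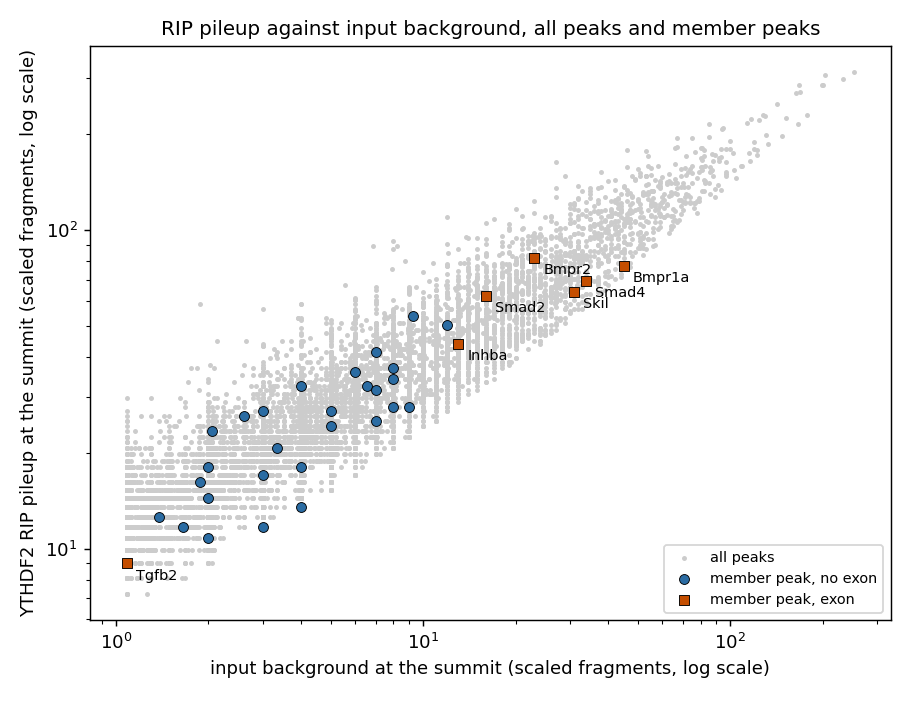
RIP pileup at the summit (vertical axis, log scale) against the input background there (horizontal axis, log scale), both in scaled fragments, for all peaks (grey) and the 35 peaks of the group. Blue circles touch no exon, and orange squares, labelled by gene, touch an exon. Of the exon peaks, 6 have backgrounds of 13 to 45, and the Tgfb2 peak sits at the lowest background, 1.08.

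Scaled by gene length, Bmpr2 had 13.0 peaks per 100 kb and Bmpr1a 10.8. Inhba followed at 5.06, Skil at 3.63, Tgfbr1 at 3.24, Acvr2a at 2.24, Smad4 at 1.54, Smad2 at 1.44, Tgfb2 at 1.20 and Tgfbr3 at 0.546. Across all protein-coding genes with a peak the median was 3.73 (quartiles 1.81 and 7.67), so Bmpr2 and Bmpr1a lay above the upper quartile, and Smad4, Smad2, Tgfb2 and Tgfbr3 below the lower one. Pooled over their lengths, the receptors had 5.53 peaks per 100 kb, against 1.94 for the ligands, 1.49 for the SMADs and 3.63 for Skil. The medians per gene were close, 3.24 for the receptors and 3.13 for the ligands, and without Bmpr2 the receptor median fell below that of the ligands (a difference of -0.39). With Bmpr2 kept, the difference was also negative for peaks with a q-value up to 1e-05 (-0.91) and for pileups not below the median (-1.98). The sign of the difference between these medians was therefore not stable.

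The highest fold of each gene ran, in order, from Bmpr2 (8.01), Bmpr1a (5.34), Acvr2a (5.13), Tgfb2 (4.80), Tgfbr1 (4.53), Tgfbr3 (4.43), Smad2 (3.71) and Inhba (3.22) to Skil (2.03) and Smad4 (2.01). All neighbours in this order have overlapping intervals, those of Inhba (2.40 to 4.24) and Skil (1.59 to 2.55) by the least. A gene with more peaks has more chances of a high one. The median of the highest folds was 4.48, against 5.13 over all protein-coding genes with a peak, and that of the highest pileups was 53.1, against 33.8.

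Repeat-masked sequence was common in the intron peaks. In 201 bp at the summit, the median share of masked bases was 57.2% in the 28 intron peaks of the group, against 37.3% in 6590 intron peaks of other genes, and 11.4% in exon peaks of other genes. Bmpr2 stood highest, at a median of 70.1% in its 14 intron peaks, with 11 of them masked over at least 50% of the window. Bmpr1a had 59.2%, with 6 of 9 at that level. Without Bmpr2, a choice made after seeing the data, the median was 48.5% in 14 intron peaks. The windows 1 kb to either side of the 28 summits had a median of 32.5%, and 20 of the 28 summits were above the mean of their own pair of windows. For the intron peaks of Bmpr2 alone the median of these side windows was 45.4%, and for those of Bmpr1a 23.9%. How reads that match several places were treated is not given in the sources used here, and the part of repeats in the peak number was not tested.

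**Figure D4:**
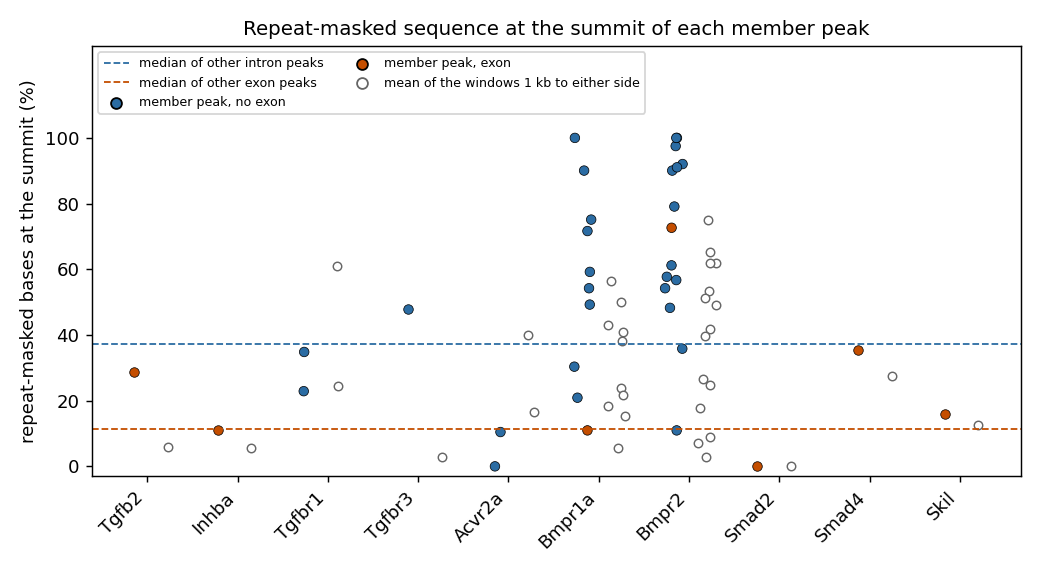
Percent of repeat-masked bases in 201 bp at the summit of each peak (filled, blue for no exon and orange for exon) and the mean of the windows 1 kb to either side (open), by gene. Dashed lines are medians of peaks of other genes, 37.3% for intron peaks and 11.4% for exon peaks. Most intron peaks of Bmpr2 and Bmpr1a lie above the upper line.

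GGAC on the strand of the gene was present in 7 of the 35 windows of 201 bp (20.0%), against 38.9% of 8431 windows at peaks of other protein-coding genes. Its reverse complement, GTCC, was present in 20 of 35 (57.1%), against 43.2%. GGACT, which contains GGAC, was present in 3 (8.57%), against 15.7%. Of the 7 exon windows 2 held GGAC, against 45.7% of exon windows elsewhere. Over the whole peaks, whose widths differ, GGAC was present in 11 of the 35 and in 3 of the 7 that touch an exon. Windows of 1 gene share base composition and repeats, so these shares are a description of the sequence at the summits.

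The pathway was also viewed through a list of 73 of its genes in 5 roles, which holds all 10 genes above. Gene bodies carried a peak in 24 of the 73 (32.9%) and 11 (15.1%) were in the authors' gene table, against 15.0% and 5.81% of all protein-coding genes. Without the 10 genes, which were chosen for their peaks, these counts were 14 of 63 (22.2%) and 4 of 63 (6.35%), so that the share in the gene table was near the background. The list was itself chosen with earlier results of these data known, so both shares depend on which genes were put on it. Of the 14 genes with a peak, 10 were targets or partners, a role of 18 genes that holds none of the 10 genes above. All ligands and SMADs of the list that carried a peak were among those 10 genes above, so the 22.2% rests mainly on targets and partners. Rbx1, Rock2 and Skp1a, which are in the authors' gene table, are not on the list. Among all protein-coding genes the share with a peak was 10.7% at 10 to 30 kb and 27.4% at 30 to 100 kb, and the median length of the 63 genes was 36.1 kb. The part of gene length in the 22.2% was not tested.

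By role, 2 of 18 ligands, 6 of 13 receptors, 2 of 6 SMADs, 4 of 18 inhibitors and 10 of 18 targets or partners carried a peak. The share over all protein-coding genes was 15.0%. The counts include the 10 genes chosen for their peaks, which are 2 ligands, 5 receptors, 2 SMADs and 1 inhibitor. Median gene length was lowest for the ligands, at 14.4 kb, and highest for the receptors, at 90.4 kb. The part of gene length in the differences between roles was not tested. Besides the genes above, the only receptor was Bmpr1b, a type I BMP receptor, at a fold of 5.67 (3.16 to 9.54). The receptors without a peak were Tgfbr2, Acvr1, Acvr1b, Acvr1c, Acvrl1, Acvr2b and Eng, and the ligands without one included Mstn, which encodes myostatin, the activin-like inhibitor of muscle growth, and Tgfb1. Among inhibitors, Smurf2, a ubiquitin ligase that marks receptors and SMADs for degradation, had 7 peaks, all in introns, with a highest fold of 5.62 (3.92 to 7.82). Ltbp1, which anchors latent TGF-beta in the matrix, had 2 in introns, up to 7.27 (4.92 to 10.4), and the inhibitory SMAD gene Smad6 had 1 at 5.58 (3.29 to 8.95). Among targets and partners, Cul1, the cullin scaffold, had 7 and the acetyltransferase Crebbp had 5, all in introns. Trim33, a ubiquitin ligase that acts on SMAD4, had 5, of which 4 were in introns.

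**Figure D5:**
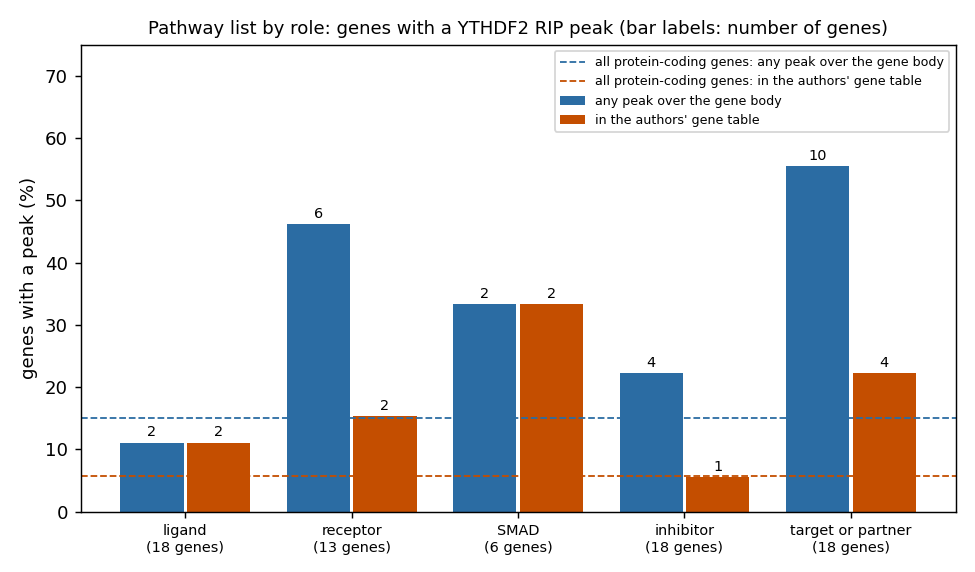
Percent of genes with a peak in each role of the 73-gene list (vertical axis): blue bars for any peak over the gene body, orange bars for genes in the authors' table, with the number of genes above each bar. Dashed lines are the shares over all protein-coding genes, 15.0% and 5.81%. The bars include the 10 genes that were chosen for their peaks.

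The 4 other genes of the list in the authors' gene table were targets or partners. Zfyve16 (endofin), an endosomal SMAD anchor, had 72 RIP fragments in its 3′ UTR and a fold of 5.48 (4.31 to 6.88). Rock1 had 8 peaks, 5 of them in introns, with a highest fold of 9.93 (6.90 to 13.9), above the 8.01 of Bmpr2. Its peak in the authors' table was coding, with 34 fragments and a fold of 6.32 (4.44 to 8.75). Rps6kb1, the S6 kinase, had a 3′ UTR peak of 30 fragments at 5.07 (3.48 to 7.16). Thbs1, thrombospondin 1, which can activate latent TGF-beta, had 152 fragments in its 3′ UTR at a fold of 1.92 (1.63 to 2.25). The KEGG row for TGF-beta signaling in the authors' deposited table counts 12 of 80 annotated genes, with 4.65 expected. The authors' deposited table gives it a p-value of 0.00208 and an FDR of 0.0531, at rank 7 of 219 pathways. Only 5 of them are genes described here (Tgfb2, Inhba, Bmpr1a, Bmpr2 and Smad2), and the other 7 are Thbs1, Rbx1, Rps6kb1, Rock1, Rock2, Zfyve16 and Skp1a. Smad4 and Skil have rows in the authors' gene table and are not among the 12.

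The genes nearest to the medians of the 10 in peak number, highest pileup, highest fold and share of peaks without an exon were Tfg, Wsb1 and Eif2s2, each with 2 peaks. They were found by distance in standardised values over 1632 genes, the other genes having at least 2 peaks, and stood at 1.13, 1.14 and 1.14. The median peak number of the 10 genes was 1, so this limit left out other genes with that number. The 10 genes themselves stood at 1.59 (Smad2) to 4.98 (Bmpr2), so the medians describe none of them closely.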

How the data were processed

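Bowtie placed the reads on mm10 and MACS called the peaks of RIP over input, per the series' design text. The submitters' processing notes also name FastQC, DiffBind, deepTools, HOMER, Picard and Trim Galore, without versions or settings. Per the file headers, the authors give each peak a pileup signal, a fold enrichment (a linear ratio), and −log10 of its p-value and q-value. The deposited tables of elements and pathways hold counts of peaks or genes, percent, and a p-value with its FDR. These values come from the authors and were used only within the list. Total depth is unknown.

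All pileups were whole multiples of 0.9 (tolerance 1e-06), read as 1 RIP fragment. The input background was recovered from pileup and fold. Peaks were assigned to GENCODE M21 genes on GRCm38, the same build, by 1 bp of overlap. Intron numbers, and distances to exons and stop codons, refer to the transcript with the longest coding sequence. All 20 chromosomes with peaks matched by name, and no peak ran past a chromosome end. Of 1285 genes in the authors' table, 1281 were matched by symbol or synonym. Repeat masking is the lower case of the RefSeq assembly.

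With 1 library per group, no test between groups was made. The members, roles, gene list and alternatives were chosen with earlier results of these data known. Named genes were the 10 members, list genes in the authors' table, up to 3 other list genes per role by peak number, and the 3 genes nearest to the members' medians. Markers, KEGG genes and list genes without a peak are also named, outside that rule. The overlap and interval code was tested on simulated data. Python 3.11.15, pandas 2.3.3, scipy 1.17.1 and matplotlib 3.10.9 were used.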

Additional observations from a re-analysis of the deposited data

How the results depend on the processing

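Filters left 23 of the 35 peaks (q-value up to 1e-05), 20 (fold of at least 4) and 20 (pileup not below the median). Members in the authors' gene table numbered 3, 1 and 6 under the same filters, and list genes in that table, 11 in the report, 7, 4 and 10. The share of peaks without an exon was 95% at a fold of 4 or more and 50% without Bmpr2 and Bmpr1a, and lay between 70.0% and 87.0% under the 6 other alternatives. The receptor minus ligand difference in median peaks per 100 kb, 0.11 in the report, turned to -0.91 at the q-value filter, -1.98 at the pileup filter and -0.39 without Bmpr2. It was 1.02 at a fold of 4 or more and 3.59 for peaks pooled over pooled length, and receptors had 1.00 more peak per gene when length was left out. Counting only peaks in the authors' gene table lowered the highest fold of Bmpr2 to 3.45 and of Bmpr1a to 1.70. Filters remove peaks by construction; otherwise the cause was not tested. RefSeq exons, peaks by summit, Bmpr2 and Bmpr1a left out, and pooled density were chosen after seeing the data. No paired analysis was possible because each group has 1 library. Total depth is unknown, so what it limits was not measured.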
